A study of Oryza sativa with 14 samples.

Results

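The genes described here are 6 rice loci with known or annotated roles in the transport of potassium or silicon, out of 37727 loci counted in each deposited table. The potassium transporter genes were OsHAK1 (Os04g0401700), HAK4 (Os08g0466200) and OsHAK5 (Os01g0930400), and the silicon transporter genes were OsLsi1 (Os02g0745100), OsLsi2 (Os03g0107300) and OsLsi6 (Os06g0228200). In the order given, RefSeq places them on chromosomes 4, 8, 1, 2, 3 and 6. The 6 loci were selected on these roles and on earlier log2 fold changes of GM over CF in both years, the treatments named in the next paragraph, so their values under the treatments are a description with no test.

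Leaves came from wild-type plants of the japonica cultivar Koshihikari that had received either green manure (GM), hairy vetch ploughed in without chemical fertilizer, or chemical fertilizer (CF). The GM paddies received no basal fertilizer, and vetch was seeded there at 60 kg per hectare ahead of the 2024 crop and at 30 ahead of the 2023 crop. The basal fertilizer of the CF paddies supplied, in kg per hectare, N at 56, PO4 at 176, K at 56, Mg at 90 and SiO2 at 120, so that potassium and silica were added in CF only. All plants came from nursery fields given 19 kg per hectare each of N, PO4 and K. The 2024 libraries, 3 for GM and 3 for CF, were from leaves taken 38 days after transplanting, and the 2023 libraries, 4 for GM and 4 for CF, from leaves taken at 47 days. Each library was made from polyA RNA of 1 leaf of a vegetative plant, named as the largest leaf in the labels and as the uppermost fully expanded leaf in the design text. The number of plots behind the leaves is not given in the sources used here, so the treatment and the field cannot be told apart, and p-values measure the spread between leaves.

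Potassium is the most abundant cation of plant cells. Transporters of the HAK/KUP/KT family carry it into cells against its gradient, and in rice roots OsHAK1 and OsHAK5 are high-affinity carriers whose transcripts are known to increase when potassium is scarce. Silicon enters rice roots as silicic acid through Lsi1, a channel of the NIP group of aquaporins, and is exported toward the xylem by the efflux transporter Lsi2. Lsi6, a NIP channel related to Lsi1, takes silicic acid out of the xylem in leaf sheaths and blades, and silica is then deposited in the leaf surface.

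Totals were 13224671 to 23367369 reads per library in 2024 and 8161851 to 11375515 in 2023. Levels are given as CPM, counts of a gene per 1000000 reads of its library, scaled by TMM, which corrects library sizes for differences in composition. The tables used here give no gene lengths, so levels are compared within a gene and not between genes. Summed over 5 leaf markers (Rubisco small subunits, light-harvesting proteins and ferredoxin), the level was 62400 to 115000 CPM in GM and 44400 to 50400 CPM in CF in 2024, and 23300 to 50500 CPM in GM and 13200 to 26300 CPM in CF in 2023. Of 6 root markers, RCc3, NRT2.1 and AMT1;3 were at 0 reads in all 14 libraries. The summed root level was 0.601 to 1.62 CPM in GM and 0.601 to 1.84 CPM in CF in 2024, and 1.09 to 2.04 CPM in GM and 1.28 to 2.41 CPM in CF in 2023. Of the meristem and cell division markers OSH1 was at 0 reads, and their summed level ranged up to 2.76 CPM in GM and 0.868 CPM in CF in 2024, and up to 1.73 CPM in GM and 0.402 CPM in CF in 2023. The leaf markers moved with both treatment and year, and their part in the results on the transporter genes was not tested. In bulk leaf RNA, fewer cells of a type and less RNA per cell cannot be told apart.

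HAK4, a member of the HAK family annotated as a potassium transporter, was lower in GM than in CF on average in both years. In 2024 the GM libraries had 1.81, 0.531 and 0.976 CPM, against 5.52, 1.6 and 5.58 CPM in the CF libraries. The GM libraries all lay under 2 CPM, and CF library 2 fell among them while the other CF libraries stood well above. The means were 1.11 ± 0.652 CPM in GM and 4.23 ± 2.28 CPM in CF (SD, n = 3 each), a log2 fold change of -1.86 ± 0.55 (SE), or 3.64-fold lower. In 2023 the GM libraries had 1.55, 0.514, 1.82 and 1.02 CPM, against 5.11, 2.69, 3.61 and 2.75 CPM in the CF libraries. Here every GM library was below every CF library. The means were 1.23 ± 0.579 CPM in GM and 3.54 ± 1.13 CPM in CF (SD, n = 4 each), a log2 fold change of -1.50 ± 0.36, or 2.83-fold lower. These levels rest on few reads, 5 to 28 per library in GM and 24 to 117 in CF. The year-to-year difference between the log2 fold changes, 2024 minus 2023, was -0.37 ± 0.67, smaller than its error.

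OsHAK5, a plasma membrane carrier for high-affinity potassium uptake, was lower in GM than in CF in 2023, while the treatments overlapped in 2024. In 2024 the GM libraries had 1.43, 1.91 and 1.95 CPM, against 1.18, 2.27 and 1.1 CPM in the CF libraries. The treatments overlapped, with CF library 2 the highest of the 6, and the log2 fold change was 0.21 ± 0.35. In 2023 the GM libraries had 2.95, 1.85, 3.09 and 2.34 CPM, against 4.48, 5.01, 5.02 and 5.13 CPM in the CF libraries. The CF libraries of 2023 lay close together and above every other library of the study. The 2023 means were 2.56 ± 0.572 CPM in GM and 4.91 ± 0.292 CPM in CF (SD, n = 4 each), a log2 fold change of -0.93 ± 0.23, or 1.91-fold lower. The log2 fold changes differed by 1.15 ± 0.40 between the years, 2024 minus 2023. Over all genes tested, only 2 had an adjusted p under 0.05 for this difference (edgeR), and OsHAK5 was not among them. Library counts of OsHAK5 were 16 to 56 reads. In RefSeq the gene overlaps 1 other protein-coding gene, and whether the authors' counting used the strand is not given in the sources used here, so reads from that gene cannot be told apart.

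OsHAK1 encodes a high-affinity potassium carrier active in uptake and in movement of potassium within the plant. Its level was lower in GM than in CF in 2024, while the treatments overlapped in 2023. In 2024 the GM libraries had 2.98, 1.06 and 2.78 CPM, against 5, 3.14 and 3.67 CPM in the CF libraries. The treatments did not overlap, although GM library 1 and CF library 2 were close, and the log2 fold change was -0.74 ± 0.32. In 2023 the GM libraries had 18.3, 4.84, 4.63 and 5.2 CPM, against 9.32, 21.3, 9.14 and 9.53 CPM in the CF libraries. Each 2023 treatment held a single library far above its other 3, GM library 1 and CF library 2, and the treatments overlapped through that GM library. The 2023 log2 fold change was -0.56 ± 0.57, no larger than its error. It was -1.34 without GM library 1, -0.15 without CF library 2, and -0.94 ± 0.19 without both, a setting chosen after the data were seen. The year-to-year difference between the log2 fold changes was -0.17 ± 0.81.

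**Figure D1:**
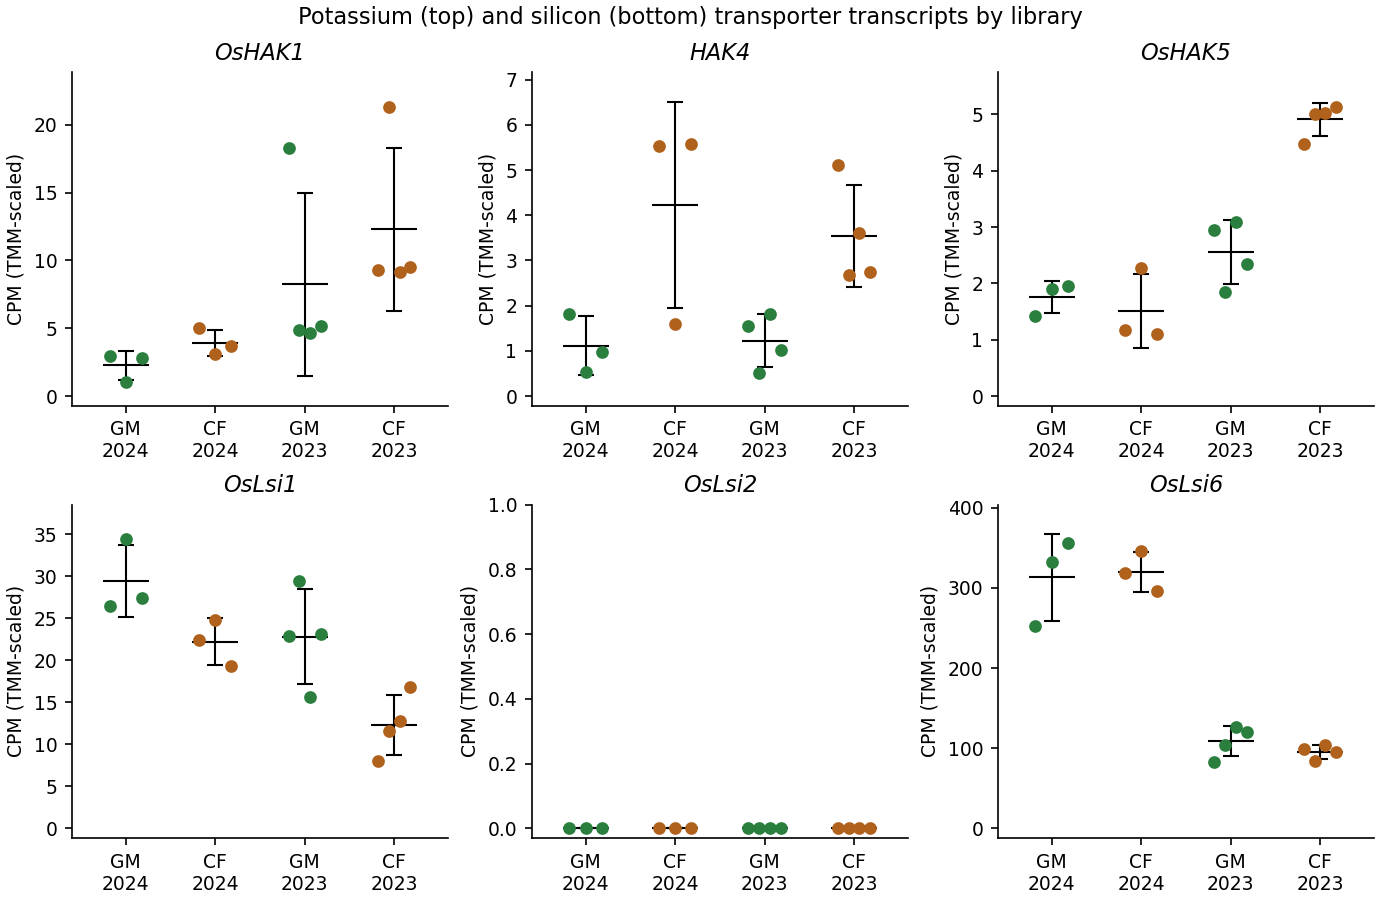
TMM-scaled CPM of the 6 transporter genes in each library (points), with mean and SD (bars), for GM and CF in 2024 (3 libraries each) and in 2023 (4 each), each panel on its own axis from 0. HAK4 sits under 2 CPM in all GM libraries, OsHAK5 is highest in the CF libraries of 2023, OsLsi6 is high in all libraries of 2024, and OsLsi2 is at 0 throughout.

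Among the silicon transporter genes, OsLsi1, the influx channel, was higher in GM than in CF on average in both years. The GM libraries of 2024 had 26.5, 34.4 and 27.4 CPM, against 22.4, 24.8 and 19.3 CPM in the CF libraries. All GM libraries were above all CF libraries, by a small margin, and the log2 fold change was 0.39 ± 0.13. The GM libraries of 2023 had 22.9, 29.4, 15.6 and 23.1 CPM, against 7.98, 11.6, 12.8 and 16.8 CPM in the CF libraries. GM library 3 fell below CF library 4, the only crossing. The 2023 means were 22.8 ± 5.64 CPM in GM and 12.3 ± 3.62 CPM in CF (SD, n = 4 each), a log2 fold change of 0.89 ± 0.22, or 1.85-fold higher. The difference between the log2 fold changes, 2024 minus 2023, was -0.49 ± 0.30. OsLsi1 is best known from roots. The root markers RCc3, NRT2.1 and AMT1;3 had 0 reads in the same libraries, while the root marker IRT1 was at 0.45 to 2.13 CPM. Whether root tissue contributed to the OsLsi1 reads was not tested.

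OsLsi2, the efflux transporter, had 0 reads in each of the 14 libraries, which together held 179547731 reads. A count of 0 allows up to 3 reads over all libraries, or 0.0172 CPM, for counting error only. Its transcript was therefore not detectable in these leaves at this depth, and no fold change is given.

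OsLsi6, the channel that unloads silicic acid from the xylem in leaves, did not separate the treatments in either year. The GM libraries of 2024 had 252, 332 and 356 CPM, against 318, 346 and 296 CPM in the CF libraries, and the GM libraries included both the lowest and the highest value. The log2 fold change was -0.04 ± 0.13. The GM libraries of 2023 had 83.4, 104, 126 and 120 CPM, against 99.5, 83.7, 104 and 95.8 CPM in the CF libraries. Every CF value lay within the GM range, while GM libraries 3 and 4 were above every CF library. The log2 fold change was 0.18 ± 0.13. The difference between the log2 fold changes was -0.21 ± 0.19.

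The fold changes came from edgeR's quasi-likelihood fit across all genes that passed a filter on low counts. Of the 6 transporter genes 5 passed the filter, all but OsLsi2. In 2024 the treatments were free of overlap for OsLsi1 (higher in GM) and OsHAK1 (lower in GM), as for 11.8% and 10.9% of all 19261 genes tested in those directions. In 2023 they were free of overlap for HAK4 and OsHAK5, both lower in GM, as for 4.61% of all 18577 genes tested. These counts of transporter genes are read no further, since the genes were chosen with the same differences known.

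**Figure D2:**
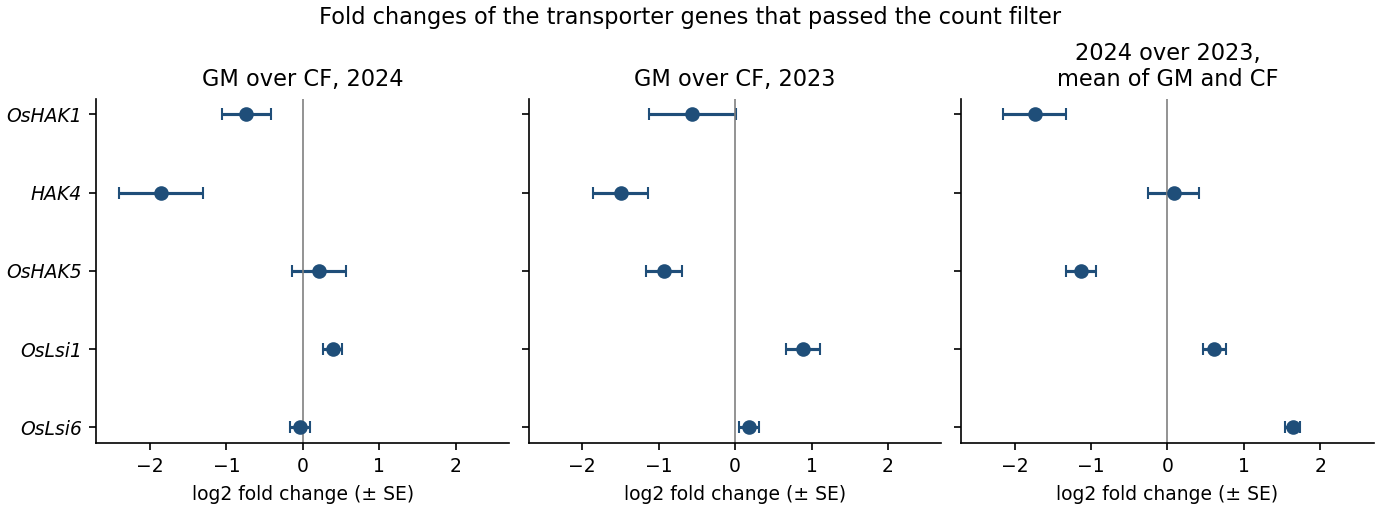
Log2 fold changes (points) with SE (bars) of the 5 transporter genes that passed the filter, for GM over CF in 2024, GM over CF in 2023, and 2024 over 2023 averaged over both treatments. HAK4 is left of 0 in both GM over CF panels (-1.86 and -1.50) and near 0 between years, and OsLsi6 is near 0 in both GM over CF panels and at 1.64 between years.

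The fold changes of GM over CF were also computed with each library left out in turn. In 2023 the log2 fold change was -1.74 to -1.26 for HAK4, -1.03 to -0.81 for OsHAK5 and 0.73 to 1.08 for OsLsi1 over the 8 such fits. For OsHAK1 it was -1.34 to -0.15, the widest spread of the 5 genes. In 2024 the log2 fold change of HAK4 was -2.44 to -1.59 over the 6 such fits. It was -2.24 without CF library 2, the CF library that lay among the GM libraries. It was furthest from 0 without GM library 1, at -2.44, and nearest without GM library 2, at -1.59. Signs did not turn in any of these fits for HAK4, OsHAK1 and OsLsi1 in either year, or for OsHAK5 in 2023. OsHAK5 in 2024 reached 0 without CF library 3, and OsLsi6 in 2024 lay on either side of 0. With GM libraries 1 and 2 of 2023 left out together, the 2023 log2 fold changes were -1.3 for HAK4 and -0.85 for OsHAK5. They were -1.33 for OsHAK1, 0.65 for OsLsi1 and 0.36 for OsLsi6.

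**Figure D3:**
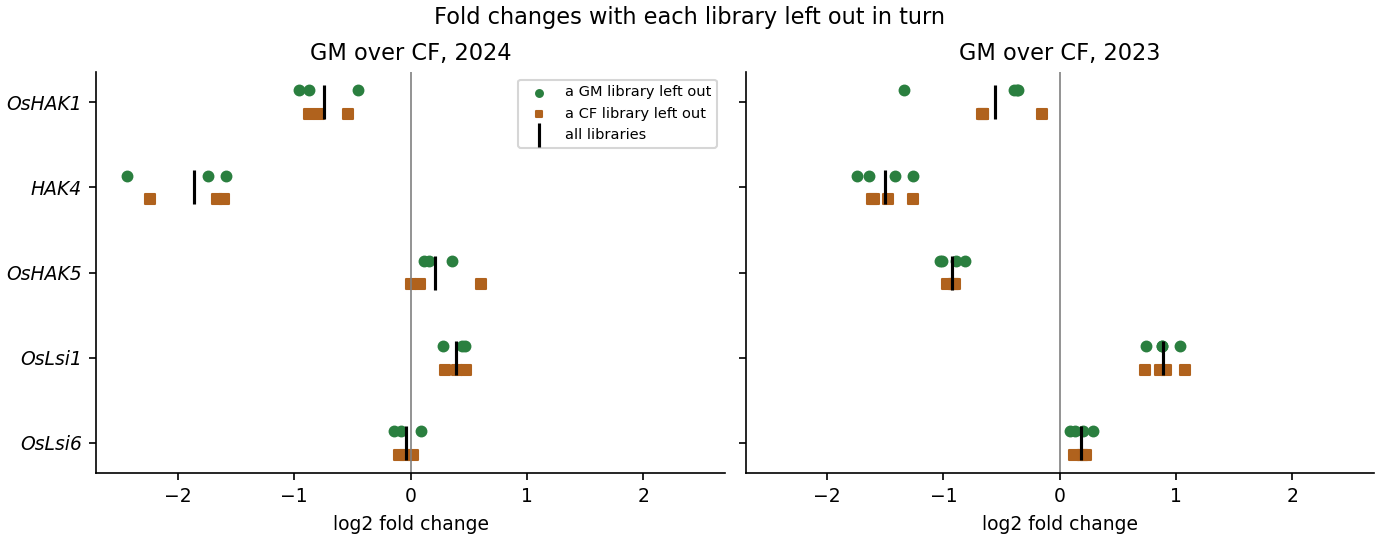
Log2 fold change of GM over CF for each transporter gene with all libraries (black line), with a GM library left out (green circles) and with a CF library left out (brown squares), for 2024 and 2023. The widest spread is that of OsHAK1 in 2023, at -1.34 without GM library 1 and -0.15 without CF library 2.

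The difference between years, averaged over both treatments, was not used to choose the genes and was tested. A gene was called where its Benjamini-Hochberg adjusted p over all genes tested was under 0.05. The 2024 leaves were younger, followed a higher vetch seed rate and stand in a separate deposited table, and these cannot be told apart from the season. Of the 5 genes, 4 were called, where 54% of all 19805 genes tested were, 25.1% higher and 28.8% lower in 2024. OsLsi6 rose 3.11-fold in 2024 relative to 2023 (log2 fold change 1.64 ± 0.10, adjusted p = 4.7e-11, edgeR), and all 6 libraries of 2024 were above all 8 of 2023, as for 11.8% of genes. OsLsi1 rose 1.53-fold (0.61 ± 0.15, adjusted p = 0.00274, edgeR). OsHAK1 fell 3.34-fold (-1.74 ± 0.41, adjusted p = 0.00386, edgeR), and OsHAK5 fell 2.19-fold (-1.13 ± 0.20, adjusted p = 7.63e-05, edgeR). HAK4 had a log2 fold change of 0.08 ± 0.33 (adjusted p = 0.856, edgeR).

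The scaling bears on these calls. Scaled by plain library totals, the median log2 fold change of all genes was -0.51, against -0.05 with TMM, and that of OsLsi1 was 0.16 (adjusted p = 0.262, edgeR). The other 3 called genes stayed past the threshold in every alternative tried. Calls over all genes were 4980 higher and 5708 lower in 2024 with TMM, and 1863 higher and 12424 lower with plain totals.

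Within each treatment, where the year difference is a description, the genes were not alike. In GM the log2 fold change of 2024 over 2023 was -1.83 ± 0.61 for OsHAK1, -0.56 ± 0.29 for OsHAK5 and 0.37 ± 0.21 for OsLsi1. In CF it was -1.65 ± 0.55 for OsHAK1, -1.71 ± 0.27 for OsHAK5 and 0.85 ± 0.22 for OsLsi1. For OsHAK1 all 2024 libraries lay below all 2023 libraries of the same treatment, in GM and in CF. The libraries of 2024 and 2023 overlapped in GM and did not overlap in CF for OsHAK5 and for OsLsi1. For OsLsi6 the value was 1.53 ± 0.14 in GM and 1.74 ± 0.14 in CF, without overlap in either. HAK4 was at -0.10 ± 0.53 in GM and 0.26 ± 0.41 in CF.

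Taking the 4 groups of each gene in order of their means, neighbouring groups mostly overlapped. For OsHAK1 the order from the lowest was GM 2024, CF 2024, GM 2023 and CF 2023, and only the first pair was free of overlap. For HAK4 both GM means were below both CF means, with the gap between treatments wider than that between years. For OsHAK5 the CF group of 2023 stood alone at the top, and the other 3 groups overlapped. For OsLsi1 the GM group of 2024 was the highest, and the CF group of 2023 was the lowest and did not overlap its neighbour. For OsLsi6 the order split by year alone.

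Other genes of potassium transport were collected by searching the deposited names and descriptions, and 51 loci were kept besides the 3 described above. They include loci described by sodium transport, such as SKC1 (Os01g0307500) and HKT4 (Os04g0607500), and Os01g0718700, described as like a predicted protein. The list was drawn up with earlier results of these data known, which limits what its calls can show. Of the 51 loci, 5 had no reads in any library. For GM over CF in 2024, 40 were tested and 0 were called with edgeR, where 3.25% of all genes tested were called, with a median log2 fold change of -0.06, against 0 over all genes. DESeq2 called 1, and 7 had an unadjusted p under 0.05. In 2023, 38 were tested, 1 was called higher, 2 were called lower and 35 were not called, with a median of -0.02, against 0 over all genes. Over all genes in 2023, 2.48% were called, 1.63% higher and 0.851% lower.

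The gene with the largest fold change among the calls was TPKA (Os03g0752300), a potassium channel of the vacuolar membrane. In 2023 the GM libraries had 34.3, 57.4, 55.9 and 65.9 CPM, against 96.2, 122, 110 and 100 CPM in the CF libraries, with no overlap. It fell 2.02-fold in GM (log2 fold change -1.01 ± 0.17, adjusted p = 0.00805, edgeR), and the call was lost without GM library 2 (adjusted p = 0.0572, edgeR). In 2024 the GM libraries had 66.8, 107 and 116 CPM, against 161, 214 and 157 CPM in the CF libraries, again with no overlap. The log2 fold change was -0.89 ± 0.22 (adjusted p = 0.0807, edgeR), with adjusted p up to 0.224 over its alternatives and under 0.05 in 4 of 13. The difference between years was 0.13 ± 0.30 (adjusted p = 0.964, edgeR).

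HAK2 (Os01g0935500), a further HAK family member, rose in GM in 2023. Its GM libraries had 13.8, 9.67, 14 and 12.6 CPM, against 7.17, 9.09, 8.03 and 7.88 CPM in CF, all GM above all CF (0.64 ± 0.16, adjusted p = 0.0458, edgeR). In 2024 its log2 fold change was 0.38 ± 0.17 (adjusted p = 0.284, edgeR). HKT9 (Os06g0701600), described as a sodium and potassium transporter, fell in GM in 2023. Its GM libraries had 6.14, 8.03, 7.45 and 8.56 CPM, against 11.7, 12.8, 12.1 and 9.89 CPM in CF, all GM below all CF (-0.64 ± 0.16, adjusted p = 0.0458, edgeR). In 2024 it was at -0.53 ± 0.18 (adjusted p = 0.138, edgeR), without overlap. Both 2023 calls were near the threshold: HAK2 and HKT9 were each called in 1 of the 8 fits that left out a library, and adjusted p reached 0.152 for HAK2 and 0.189 for HKT9 over all alternatives.

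**Figure D4:**
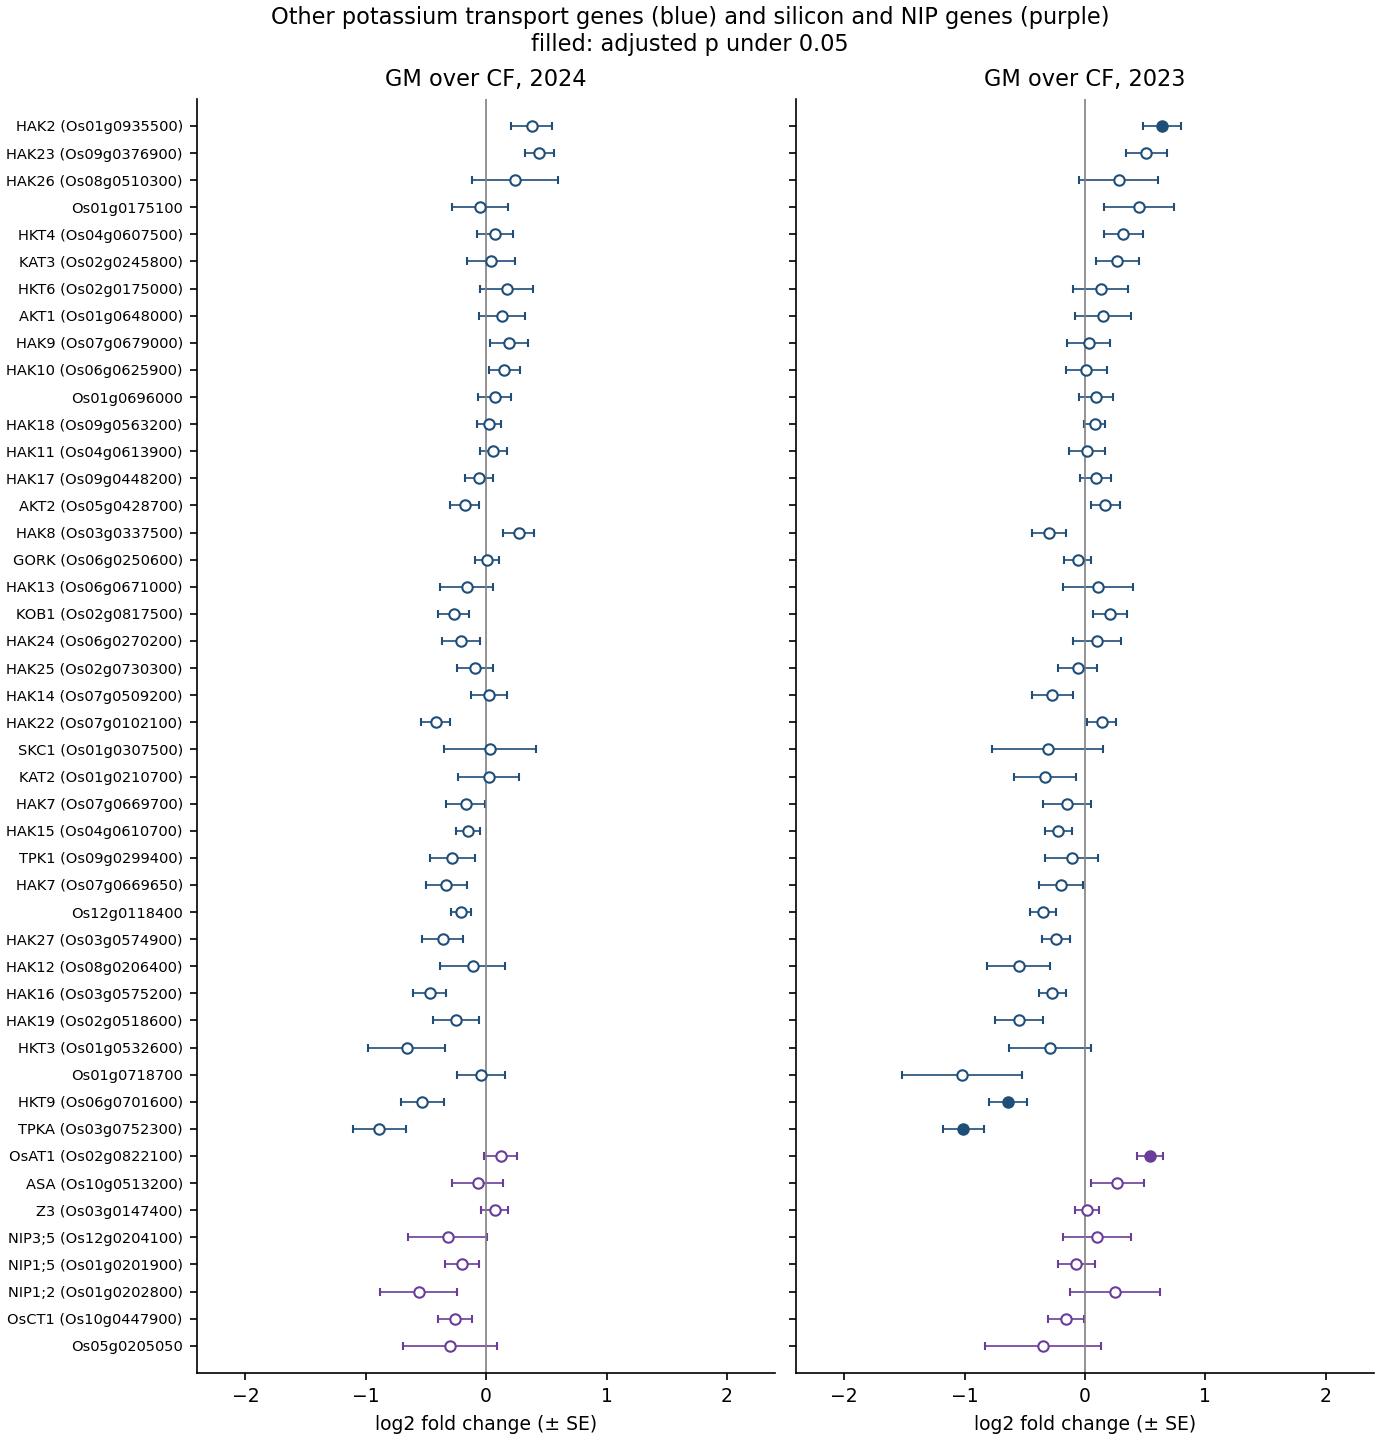
Log2 fold changes of GM over CF (points) with SE (bars) for the 38 further potassium transport genes (blue) and 8 silicon and NIP genes (purple) tested in both years, in 2024 and 2023, filled where the adjusted p was under 0.05. Filled points appear only in 2023, for TPKA and HKT9 left of 0 and for HAK2 and OsAT1 right of 0.

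Of silicon and NIP genes, 16 loci were kept besides the 3 transporter genes, in a list likewise drawn up with earlier results known. No reads were counted for 2 of them, which include LSI3 (Os10g0547500), a relative of OsLsi2. In 2024, 8 were tested and 0 were called by edgeR or DESeq2, with 0 at an unadjusted p under 0.05, where 3.25% of all genes were called. The median log2 fold change was -0.23, against 0 over all genes. In 2023, 8 were tested and 1 was called, higher in GM, where 1.63% of all genes were called higher, with a median of 0.06, against 0 over all genes.

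The called gene was OsAT1 (Os02g0822100), described as an anion transporter and found through its synonym SIET3. In 2023 its GM libraries had 122, 96.7, 105 and 99.6 CPM, against 74.9, 82.8, 66 and 66.1 CPM in the CF libraries, all GM above all CF. It rose in GM with a log2 fold change of 0.54 ± 0.11 (adjusted p = 0.0143, edgeR). The call was lost without CF library 1 (adjusted p = 0.051, edgeR), without CF library 3 (0.0786) and with plain library totals (0.124). In 2024 the GM libraries had 89.2, 65.9 and 63.7 CPM, against 74.8, 57.5 and 68.6 CPM in the CF libraries, which overlapped (0.12 ± 0.14, adjusted p = 0.744, edgeR). The difference between years was -0.42 ± 0.18 (adjusted p = 0.735, edgeR). Z3 (Os03g0147400), described as a citrate transporter and with the highest mean CPM of this list, was at 0.07 ± 0.11 in 2024 (adjusted p = 0.8, edgeR) and 0.02 ± 0.10 in 2023 (adjusted p = 0.962, edgeR).

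**Figure D5:**
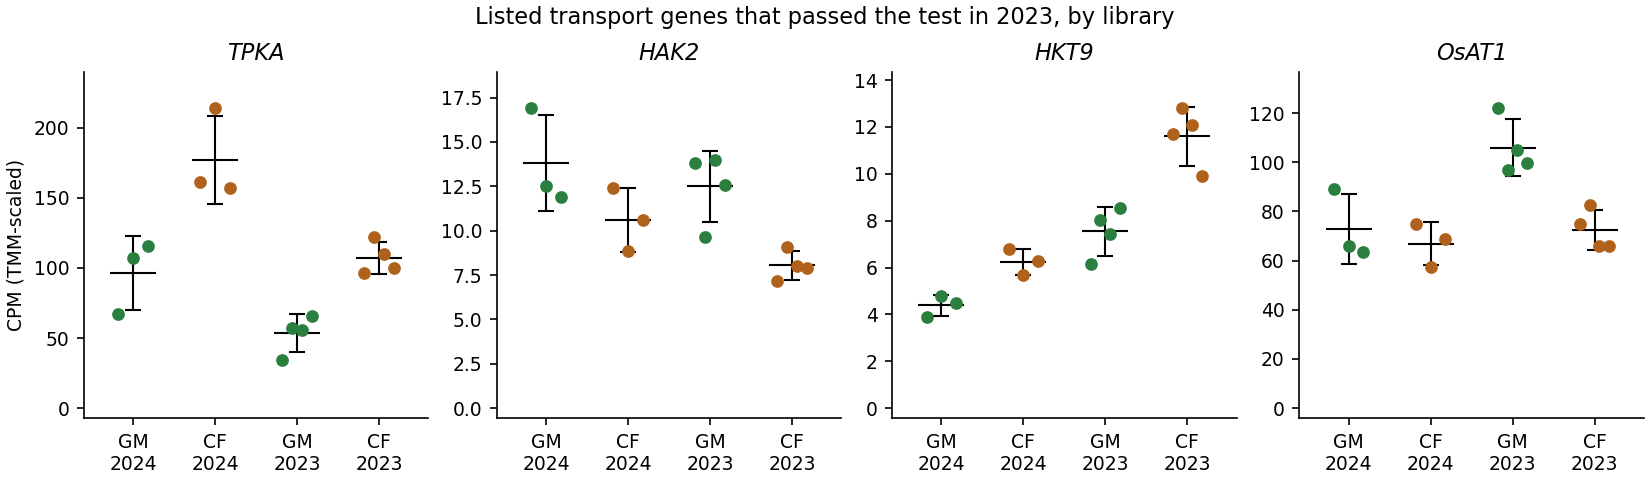
TMM-scaled CPM of the 4 listed genes called in 2023 in each library (points), with mean and SD (bars), for GM and CF in 2024 and 2023. TPKA lies lower in GM than in CF in both years without overlap, while OsAT1 is higher in GM in 2023 and overlaps in 2024.

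The genes whose levels varied most like each transporter gene were found by Pearson's r of log2 CPM over the 14 libraries, each centred on the mean of its year. They were taken from 12684 genes that carry an informative name or description. For each, r was computed again without the 2 libraries farthest from the median of the transporter gene after this centring. Both genes of a pair were counted in the same libraries, with their treatments and depths in common. The values are a description, and nothing on shared function follows from them. For OsHAK1 the 2 libraries left out were GM library 2 of 2024 and CF library 2 of 2023. The high GM library 1 of 2023 thus stayed in. The closest gene to OsHAK1 was the transcription factor gene NAC15 (Os07g0684800), with r = 0.94, and 0.89 without the 2 libraries. The next were Os07g0178700, described as like an early light-inducible protein (0.93 and 0.89), and the kinase gene OSK3 (Os03g0289100, 0.91 and 0.85).

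For HAK4 the closest were GNK2RLK8 (Os10g0136500, 0.94 and 0.92), Os11g0628000 (0.92 and 0.87) and Os11g0669100 (0.91 and 0.90). For OsHAK5 they were Os10g0102400 (0.92 and 0.88), EDA16 (Os08g0180300, 0.89 and 0.82) and Os04g0672200 (0.87 and 0.79). OsHAK5 thus had the loosest match of the 5 genes. For OsLsi1 they were LIP5 (Os03g0655400, 0.96 and 0.92), CBL4 (Os05g0534400, 0.95 and 0.93) and Os10g0575700 (0.95 and 0.89). For OsLsi6 they were SIP34 (Os01g0111900, 0.95 and 0.94), OsDAHPS1 (Os03g0389700, 0.92 and 0.90) and FLA2 (Os03g0128000, 0.91 and 0.86). No gene appeared in the lists of more than 1 transporter gene.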

How the data were processed

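RNA-seq counts of 14 leaf libraries were taken from the tables deposited for each year. The deposited counts are unique exon reads per gene made by the authors against IRGSP 1.0, per the labels and the submitters' processing notes. The sources used here do not give the aligner, the counter or the use of strand. Libraries were directional, per the labels' protocols. In the 2024 table, 2 columns headed replicate 4 were not used. The transporter genes and the gene lists were chosen with earlier results of these data known.

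The treatments were compared in each year by edgeR 4.0.16 (robust quasi-likelihood test) after TMM scaling, on genes kept by filterByExpr at a minimum count of 10 and a minimum total of 15, in R 4.3.3 with limma 3.58.1 and version 1.17.8 of data.table. Both contrasts across years came from 1 fit of all 14 libraries. The named genes were the 6 transporter genes, every list member called in a year or otherwise the highest, and the 3 genes most like each transporter gene in pattern (mean of at least 2 CPM, prior count 2). Lists left out 4 potassium and 2 silicon loci whose descriptions name other proteins, and 1 root marker described as non-protein coding was left out. Chromosomes were matched to RefSeq, where all 6 loci were found. No library pair of a group agreed within sampling noise. Replicate numbers were checked as pairs: deviations of same-numbered libraries correlated at 0 to 0.27 in 2024 and -0.12 to 0.15 in 2023. The main fits did not treat them as pairs, and pairing in 2024 was not settled. Alternatives were DESeq2 1.42.0, its size factors, plain totals, no filter, a filter at 5 CPM, all libraries in 1 fit, the replicate block and libraries left out. The pipeline was tested on simulated data.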

Additional observations from a re-analysis of the deposited data

Results flagged for a closer look

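Of the 10 groups of 4 libraries examined (5 genes in GM and CF of 2023), 2 held a library far from the others, both for OsHAK1. In GM of 2023 the highest library had 18.3 CPM, with a gap to the next library of 0.959 of the whole range. In CF of 2023 the highest had 21.3 CPM, with a gap of 0.968 of the range. Both gaps are above the critical value of Dixon's test for 4 libraries, and chance flags about 1 in 20 groups. The high library was number 1 in GM and number 2 in CF, and the other 3 libraries of each treatment lay at 4.63 to 5.2 CPM in GM and at 9.14 to 9.53 CPM in CF. These high libraries also stood apart on the second principal component of 2023, an axis of variation over all genes tested. There they were at -31.9 (GM) and -30.6 (CF), against 2.8 to 31.1 in the other GM and -5.5 to 2.4 in the other CF libraries. How far the OsHAK1 levels follow this wider difference was not tested.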

How the results depend on the processing

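Of the 3 called year differences besides OsLsi1 (OsHAK1, OsHAK5, OsLsi6), all kept direction and call under every alternative run. With plain library totals the median log2 fold change of all genes was -0.21 in 2024, -0.18 in 2023 and -0.51 between years, against 0, 0 and -0.05 with TMM. They gave log2 fold changes of 0.16 for OsLsi1 and -0.37 for HAK4 between years, and 0.18 for OsLsi1 and -0.26 for OsLsi6 for GM over CF in 2024. Over all genes they gave 203 higher and 985 lower calls for GM over CF in 2024 (364 and 262 with TMM) and 166 and 515 in 2023 (302 and 158). With each library left out in turn, HAK4 between years lay between -0.18 and 0.30, the year difference of GM over CF between -0.58 and 0.61 for OsHAK1 and between 0.94 and 1.55 for OsHAK5. The potassium list then had 0 to 4 calls in 2024 and 1 to 2 in 2023, and the silicon and NIP list 0 to 1 in 2023. In 2024 the potassium list had 1 call with DESeq2 (TPKA), 5 with plain totals, 3 with no filter and 4 with the replicate block. In 2023 it had 1 with the replicate block and 1 without the highest OsHAK1 library of each treatment, and the silicon and NIP list had 0 with plain totals. The cause was not tested. The replicate number as a block was not run between years, since year is constant within a block, and not every library correlated best with its own number. In 2024, GM libraries 1 and 2 did correlate best with the CF library of their number. With the block, HAK4 in 2024 was at -1.94 ± 0.29, against -1.86 ± 0.55 without it. TPKA in 2024 then had an adjusted p of 0.007 (edgeR), against 0.0807 without the block. The filter at 5 CPM gave no value for HAK4 within either year, or for OsHAK1 and OsHAK5 in 2024. HAK4 and OsHAK5 rest on the fewest reads, which limits their precision.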

Other observations

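Between years, averaged over both treatments, 39 of the further potassium transport genes were tested, and 7 were higher and 8 lower in 2024 relative to 2023. Among those that rose were the channel gene AKT2 (Os05g0428700, log2 fold change 0.54 ± 0.08, adjusted p = 1.07e-05, edgeR) and the HAK family gene HAK10 (Os06g0625900, 0.89 ± 0.11, adjusted p = 7.14e-07, edgeR). Among those that fell were HAK16 (Os03g0575200, -0.83 ± 0.09, adjusted p = 2.71e-07, edgeR) and the outward channel gene GORK (Os06g0250600, -0.22 ± 0.08, adjusted p = 0.0225, edgeR). Of the 8 silicon and NIP genes 0 rose and 3 fell, namely OsAT1, Z3 and NIP3;5 (Os12g0204100, -0.70 ± 0.21, adjusted p = 0.0078, edgeR). AKT2, HAK10, HAK16, GORK and NIP3;5 were chosen for naming after their values were seen. Over all genes 25.1% were called higher and 28.8% lower, and season, leaf age, vetch seed rate and deposited table cannot be told apart.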
